A study of Mus musculus and Acomys cahirinus with 25 samples.

Results

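The 8 genes described here, Timp1, Timp2, Timp3, Timp4, Plau, Plaur, Plat and Serpine2, encode the tissue inhibitors of metalloproteinases and the activators, receptor and inhibitor of the plasminogen cascade. They were chosen by symbol, and all 8 were found among the 24500 gene rows counted in each of 25 RNA-seq libraries of mouse skin wounds. The study asked which genes accompany wound induced hair neogenesis, the formation of new hair follicles in a large healing wound. In laboratory mice these follicles form at the wound center and not at the wound margin. Of the libraries, 13 came from laboratory mice, 4 weeks old at wounding, on post-wound day (PWD) 14: 2 of wild type epidermis from the wound center, 2 of wild type epidermis from the wound margin, 5 of wild type dermis from the center, 2 of wild type dermis from the margin and 2 of dermis from the center of K14-Cre-Twist1 mice. In those mice Cre recombinase, driven by the keratinocyte promoter K14, deletes the transcription factor gene Twist1 in the epidermis, and their controls carried intact Twist1. The study used C57Bl/6J mice beside these lines, and the labels give the genotype but no strain for any library. The other 12 came from African spiny mice (Acomys cahirinus, 2 months old), wild type, as epidermis and dermis of whole wounds: 1 epidermis and 2 dermis libraries of unwounded skin (PWD0), 2 epidermis and 1 dermis at PWD14, 2 of each layer at PWD21, and 1 of each at PWD28. Epidermis and dermis were separated by hand. No label states whether libraries of a group came from separate animals. The study calls its RNA-seq duplicates independent and describes laboratory mouse groups as biologically independent experiments. The tests measure the spread between libraries.

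Tissue inhibitors of metalloproteinases (TIMPs) are small secreted proteins that occupy the active site of the matrix metalloproteinases (MMPs) and so limit the breakdown of collagen and other matrix. TIMP-1 and TIMP-2 are soluble, TIMP-2 also takes part in the activation of pro-MMP2 at the cell surface, TIMP-3 stays bound to the extracellular matrix and also inhibits ADAM sheddases, and TIMP-4 is the most tissue-restricted. Plau (urokinase) and Plat (tissue plasminogen activator) cut plasminogen into plasmin, a protease that degrades fibrin and activates several MMPs. Plaur is the surface receptor that holds urokinase at the leading edge of migrating keratinocytes, and Serpine2 (protease nexin-1) is a serpin that inhibits thrombin, plasmin and both activators and is an established marker of the dermal papilla.

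Of the 8 genes, 6 had a promoter in the RefSeq table of the laboratory mouse used here (build GRCm38.p6). The 250 bases before the start of transcription are shown for Timp1, Plaur and Timp3. Timp1 rose and Timp3 fell in the spiny mouse wound epidermis, and Plaur held the AP-1 letters searched for. All sequences are those of the laboratory mouse, and no spiny mouse promoter was searched. The capitals mark AP-1 (TGANTCA, either strand), the element bound by Fos and Jun proteins. Timp1 lies at chrX:20869916-20870165 (plus strand), Plaur at chr7:24462233-24462482 (plus strand) and Timp3 at chr10:86300162-86300411 (plus strand). For Plaur the start used by the promoter table lies inside the outer bounds of the gene given below, which begin farther upstream, and distances are counted from the table's start.
Timp1: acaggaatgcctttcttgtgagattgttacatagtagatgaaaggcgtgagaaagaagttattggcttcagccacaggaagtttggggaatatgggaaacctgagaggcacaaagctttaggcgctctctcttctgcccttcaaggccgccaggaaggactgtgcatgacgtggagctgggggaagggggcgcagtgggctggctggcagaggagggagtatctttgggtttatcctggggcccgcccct
Plaur: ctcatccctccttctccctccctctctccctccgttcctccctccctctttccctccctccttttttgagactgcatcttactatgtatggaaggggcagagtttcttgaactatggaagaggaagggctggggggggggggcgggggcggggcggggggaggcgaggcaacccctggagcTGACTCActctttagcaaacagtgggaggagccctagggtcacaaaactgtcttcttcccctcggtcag
Timp3: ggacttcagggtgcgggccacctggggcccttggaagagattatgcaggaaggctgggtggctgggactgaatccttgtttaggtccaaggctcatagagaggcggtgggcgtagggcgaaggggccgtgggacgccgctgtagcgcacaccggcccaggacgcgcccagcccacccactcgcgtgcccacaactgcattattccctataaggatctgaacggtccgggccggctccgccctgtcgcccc
In Plaur the AP-1 letters stood once, 69 bases before the start. The other 5 promoters held none in the searched window of 250 bases before to 50 after the start, and 7.81% of 32851 promoters held at least 1. Timp3 held the E-box letters (CANNTG, either strand) 2 times, as did Timp2, and Timp4 and Serpine2 held them 1 time each. E-boxes, the element of Twist1 and other basic helix-loop-helix factors, stood in 72.3% of all promoters. None of the 6 held TATAAA, which stood in 13.6% of promoters on either strand. These matches describe letters and do not show that a factor binds there.

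In the same annotation the genes lie apart from each other. Timp1 (chromosome X, 20870166 to 20874737, plus strand), Timp3 (chromosome 10, 86300412 to 86349505, plus strand) and Timp4 (chromosome 6, 115244444 to 115252205, minus strand) each lie within a synapsin gene on the opposite strand, which are Syn1, Syn3 and Syn2. Strands, exons and these overlaps were taken from the GENCODE annotation, and the gene bounds from RefSeq. In GENCODE, exons of Timp4 and Syn2 share 90 bases, and those of the other 2 pairs share none. Timp2 lies on chromosome 11 (118301061 to 118355411, minus strand), Plau on 14 (20836662 to 20843388, plus strand), Plaur on 7 (24460937 to 24475970, plus strand), Plat on 8 (22757722 to 22782848, plus strand) and Serpine2 on 1 (79794317 to 79858665, minus strand).

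Levels are given as CPM, the counts of a gene scaled so that the reads on all genes have the same total in every library. Laboratory mouse libraries held 19413261 to 86532134 reads on genes and spiny mouse libraries, whose reads were aligned to the laboratory mouse genome, 5669760 to 34751956. Tests used edgeR's quasi-likelihood method with TMM scaling over all genes that passed a filter on low counts, and a gene was called at a Benjamini-Hochberg adjusted p-value (FDR) under 0.05. TMM shifts all genes of a comparison together relative to CPM. Scaling by library size in place of TMM moved the median log2 fold change of all genes by -0.55 and -0.72 in the spiny mouse epidermis comparisons, by -0.23 in spiny mouse dermis at PWD14, and by -0.72, -0.82 and -0.12 in the 3 comparisons of epidermis with dermis. The 14 keratinocyte markers summed to 158039 to 220008 CPM in laboratory mouse epidermis, and the 15 fibroblast markers to 91809 to 182285 CPM in laboratory mouse dermis, and so the layers matched their labels. The layers were not free of each other. In laboratory mouse epidermis fibroblast markers summed to 5325 to 6464 CPM at the center and 854 to 2467 CPM at the margin. In laboratory mouse dermis keratinocyte markers summed to 465 to 675 CPM in 2 of the wild type center libraries (replicates 1 and 2, set A, which the study clustered with the margin libraries), to 2381 to 4775 CPM at the margin, to 40.2 to 92.6 CPM in the other 3 wild type center libraries (replicates 3 to 5, set B, clustered with K14-Cre-Twist1), and to 1062 and 36945 CPM in the K14-Cre-Twist1 libraries. K14-Cre-Twist1 replicate 2 also had the fewest detected genes of the 13, 12075.

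In laboratory mouse wounds, the dermis held most of the inhibitor RNA, and Plau was the exception among the 8 genes. Timp2 was the most abundant at 1054 to 1966 CPM in the 5 wild type center dermis libraries and 1182 and 1400 CPM at the margin, against 39.1 and 42.4 CPM in center epidermis and 15.6 and 30.3 CPM in margin epidermis. Plau stood at 43.3 to 88.5 CPM in center dermis and at 87.5 and 88.1 CPM in center epidermis, so that the layers overlapped. Per kilobase of exon (RPKM, computed here from the counts), the order in wild type center dermis was Timp2 (mean 421 RPKM, n = 5), Timp1 (227), Serpine2 (225), Plat (118), Plaur (54.3), Timp3 (44.1) and Plau (25.9). The ranges of Timp1 (162 to 306 RPKM) and Serpine2 (127 to 429 RPKM) overlapped, as did those of Plaur (22.0 to 96.4 RPKM) and Timp3 (24.5 to 75.5 RPKM). In center epidermis Plau led at 37.4 and 37.6 RPKM, ahead of Timp2 at 10.5 and 11.4 RPKM, and Timp3 was the lowest detected gene at 1.19 and 1.59 RPKM. At the margin of the epidermis Plau (17.2 and 29.8 RPKM) was again the highest and Timp3 (6.43 and 7.0 RPKM) and Timp2 (4.21 and 8.16 RPKM) followed and overlapped.

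Timp4 was at 0 counts in 11 of the 13 laboratory mouse libraries, which allows up to 0.0347 to 0.155 CPM depending on the library. It had 6 counts in 1 margin epidermis library and 202 counts (9.31 CPM) in K14-Cre-Twist1 replicate 2, against 0 in replicate 1. It did not pass the filter on low counts in any laboratory mouse comparison with all libraries, and of the 8 genes 7 were tested there.

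**Figure D1:**
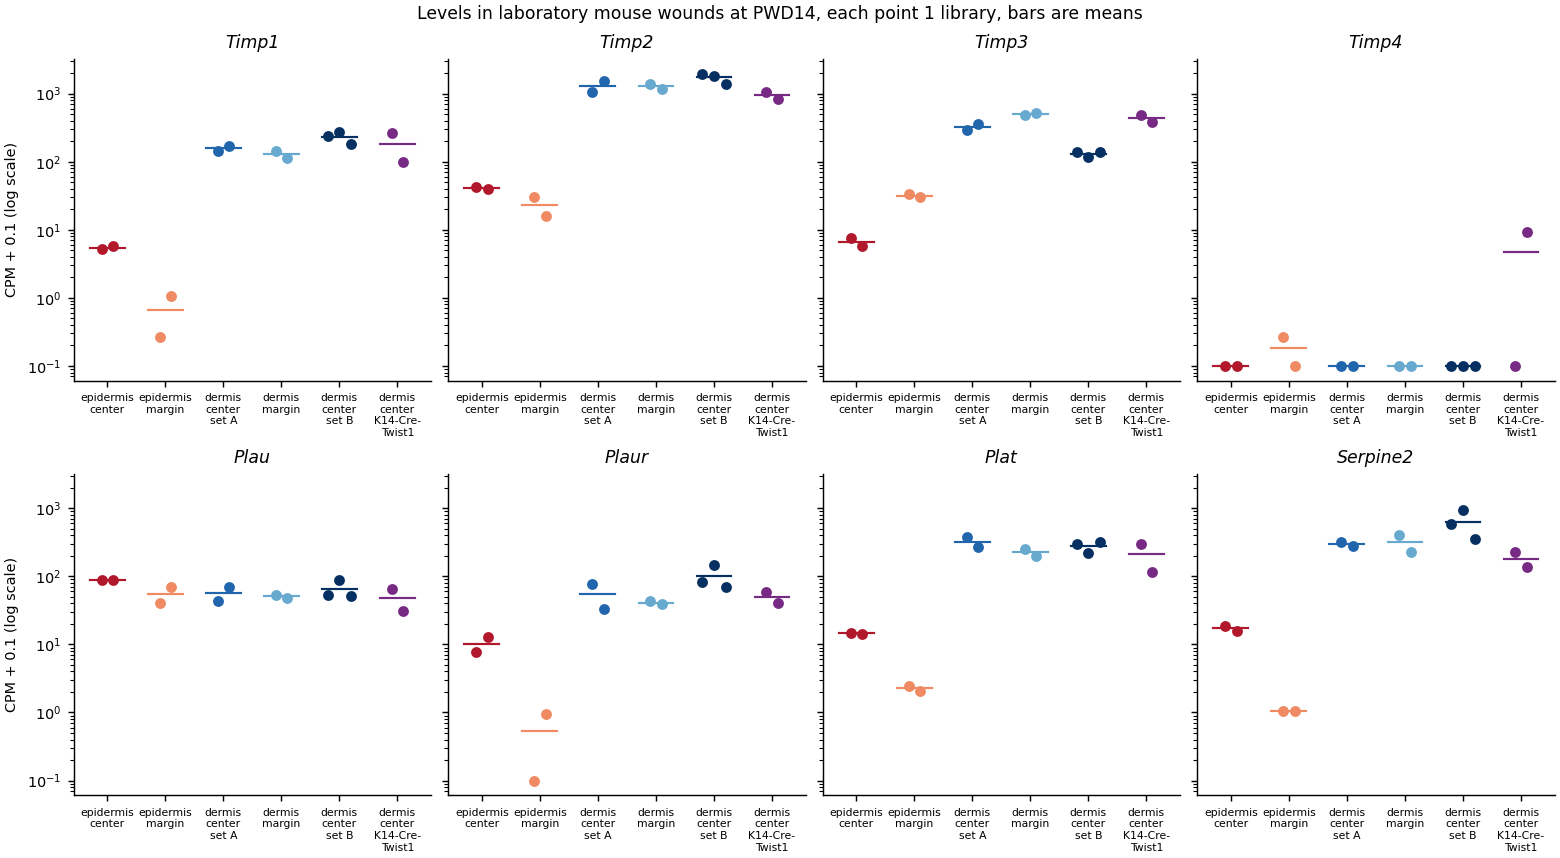
Levels of the 8 genes in each laboratory mouse library at PWD14, as CPM + 0.1 on a log scale, by layer, region, genotype and set, with a bar at each group's mean. Timp2 in center dermis reached 1054 to 1966 CPM while Plau stayed between 31.1 and 88.5 CPM in every layer and region.

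The difference between layers was tested within each region. At the center, with 2 epidermis and 5 dermis libraries, all 7 tested genes were called: 6 were lower in epidermis and Plau was higher, while 25% of all tested genes were called lower and 26.8% higher. The log2 fold changes of epidermis over dermis were -4.54 ± 0.38 (SE) for Timp2 (FDR 1.53e-05), -4.51 ± 0.34 for Timp1 (FDR 9.14e-06), -4.25 ± 0.54 for Timp3 (FDR 0.000177), -4.14 ± 0.57 for Serpine2 (FDR 0.000271), -3.65 ± 0.28 for Plat (FDR 1.01e-05) and -2.30 ± 0.53 for Plaur (FDR 0.00541). Plau was 1.26 ± 0.25 higher (FDR 0.00242), and scaled by library size alone it was 0.53 higher with an FDR of 0.119. At the margin, again 6 of 7 were lower and Plau was higher, against a background of 26.8% called lower and 20.9% higher. There Serpine2 had the widest gap, -7.57 ± 0.50 (FDR 6.09e-06), with 230 and 406 CPM in dermis and 0.96 and 0.95 CPM in epidermis, and Timp3 the narrowest among the 6, -3.14 ± 0.33 (FDR 4.04e-05). The margin value of Plau, 0.94 ± 0.35 (FDR 0.0466), passed narrowly: scaled by library size alone it was 0.13 with an FDR of 0.779, without margin epidermis replicate 2 it was 0.50 with an FDR of 0.181, without margin dermis replicate 1 it was 1.10 with an FDR of 0.170, and without margin dermis replicate 2 it was 0.82 with an FDR of 0.316. With library size scaling the share of higher calls among all called genes was 28.3% at the center and 20.5% at the margin, in place of 51.7% and 43.8%. Epidermis was sequenced with paired ends and dermis with single ends, so that layer and read type cannot be told apart. In bulk samples fewer cells of a type and less RNA per cell cannot be told apart either.

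In laboratory mouse epidermis, the serpin Serpine2 and the activator Plat rose at the wound center and the matrix-bound inhibitor Timp3 fell. Serpine2 was at 18.4 and 15.8 CPM in the center and 0.96 and 0.95 CPM at the margin, a log2 fold change of 4.08 ± 0.39 (FDR 0.0367). Plat was at 14.7 and 14.0 CPM against 2.35 and 1.98 CPM, a log2 fold change of 2.67 ± 0.36 (FDR 0.0421). Timp3 moved the other way, from 33.0 and 30.4 CPM at the margin to 7.51 and 5.63 CPM at the center, a log2 fold change of -2.37 ± 0.29 (FDR 0.0369). For these 3 genes center and margin libraries lay far apart relative to the spread within each pair. Of all tested genes 0.882% were called higher and 0.36% lower, and among the 7 genes 2 were called higher and 1 lower.

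The remaining genes of this comparison did not pass. Plaur, the urokinase receptor, was at 7.54 and 12.8 CPM in the center and 0 and 0.86 CPM at the margin, with a log2 fold change of 4.05 ± 0.75 (FDR 0.0715). Timp1 was at 5.15 and 5.61 CPM against 0.17 and 0.97 CPM, with a log2 fold change of 2.85 ± 0.60 (FDR 0.0875). Timp2 and Plau had log2 fold changes of 0.73 ± 0.38 (FDR 0.302) and 0.58 ± 0.27 (FDR 0.263). At an unadjusted p-value under 0.05 the genes counted were 5 of 7 (Serpine2, Plat, Plaur, Timp1 and Timp3), against 23.5% of all tested genes. Timp3 and Plat lost their call without center replicate 1 (FDR 0.115 and 0.182) or center replicate 2 (FDR 0.216 and 0.190), and Serpine2 passed with each of the 4 libraries left out in turn. The quasi-likelihood method of edgeR 3 called none of the 7. Without margin replicate 1, and likewise without margin replicate 2, 6 of the 7 genes passed, in fits that rest on 1 margin library and called 36.4% and 50.9% of all tested genes.

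Fibroblast markers moved with this comparison: the 15 markers had a median log2 fold change of 1.95, with 3 called higher, against -0.02 over all genes. In center epidermis the median fibroblast marker stood at 2.82% and 3.47% of its mean level in center dermis, with single markers between 0.518% and 9.15%. On the same measure Timp1 stood at 2.55% and 2.78%, Timp2 at 2.50% and 2.71%, Serpine2 at 3.18% and 3.71%, Plat at 4.72% and 4.96%, Plaur at 9.22% and 15.6% and Plau at 144% and 145%. In margin epidermis the median fibroblast marker stood at 0.666% and 1.11% of the margin dermis level, Serpine2 at 0.298% and 0.303%, Plat at 0.874% and 1.04%, Timp3 at 6.06% and 6.59% and Plau at 80.0% and 138%. In center epidermis Timp1, Timp2, Timp3 (3.61% and 2.70%), Serpine2 and Plat lay within the range of single fibroblast markers, and Plaur and Plau lay above it. At the margin single fibroblast markers reached 13.5% and 17.3%, above Timp3. Timp3 fell at the center, where the fibroblast markers were higher. The part of dermal RNA in these differences was not tested.

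In laboratory mouse epidermis, center against margin, 0.882% of all tested genes were called higher and 0.36% lower. Of 24 tested members of a list of 25 metalloproteinases and related genes, 2 were called higher and none lower. These were Mmp9, a gelatinase, at a mean of 53.8 CPM against 10.2 CPM (log2 fold change 2.31 ± 0.24, FDR 0.0367), and Mmp14, a membrane collagenase that activates pro-MMP2 together with TIMP-2, at 134 CPM against 47.4 CPM (1.39 ± 0.20, FDR 0.0455). The median log2 fold change of the tested members was 1.2, against -0.02 over all genes.

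In laboratory mouse dermis, none of the 7 genes was called between the set A center and the margin (2 against 2 libraries, edgeR), where 0.116% of all tested genes were called higher and 0.735% lower. At an unadjusted p-value under 0.05 the count was 2 of 7, against 15.8% of all tested genes. DESeq2 called 1, Timp3, and it called 4.57% of all genes it tested. Timp3 was at 291 and 356 CPM in the center and 486 and 517 CPM at the margin, with a log2 fold change of -0.55 ± 0.18 (FDR 0.218). Plat was at 372 and 270 CPM against 255 and 197 CPM, with a log2 fold change of 0.60 ± 0.24 (FDR 0.253). The other 5 genes had log2 fold changes between 0.00 and 0.54 in size, and center and margin libraries overlapped in 4 of them, which are Timp2, Plau, Plaur and Serpine2. The groups did not overlap in 3 of the 7 genes, against 45.3% of all tested genes. Keratinocyte markers were lower at the dermis center, with 6 of 14 called lower, 0 higher and a median log2 fold change of -2.69, and their part in the difference of Timp3 was not tested. Of the metalloproteinase list, Mmp12, the macrophage elastase, was the 1 gene of 23 tested that was called, and it was higher at the center (411 against 94.3 CPM, log2 fold change 2.20 ± 0.22, FDR 0.00148).

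Whether the center differed from the margin in another way in epidermis than in dermis was tested as an interaction over these 8 libraries. Of the 7 genes 4 were called, 3 with a higher center-to-margin change in epidermis and 1 with a lower one, against 3.34% and 0.135% of all tested genes, and the median interaction over all genes was 0.31. The differences were 4.22 ± 0.50 for Serpine2 (FDR 0.00198), 2.6 ± 0.57 for Timp1 (FDR 0.0287), 2.21 ± 0.42 for Plat (FDR 0.0159) and -1.68 ± 0.34 for Timp3 (FDR 0.0219). Plaur, at 3.66 ± 0.92 (FDR 0.0569), did not pass. Markers of other cells moved with the interaction: 5 of 15 fibroblast markers (median 1.75), 6 of 14 keratinocyte markers (2.83), 3 of 6 endothelial markers (3.15) and 2 of 4 tested neutrophil markers (4.28) were called higher, and their part in it was not tested. Serpine2 kept its call with each of the 8 libraries left out in turn. Timp1, Timp3 and Plat lost their calls without center epidermis replicate 1 or 2, center dermis replicate 2, or margin dermis replicate 1 or 2. Each of these fits leaves 1 library in a group, and calls over all genes fell in them too.

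**Figure D2:**
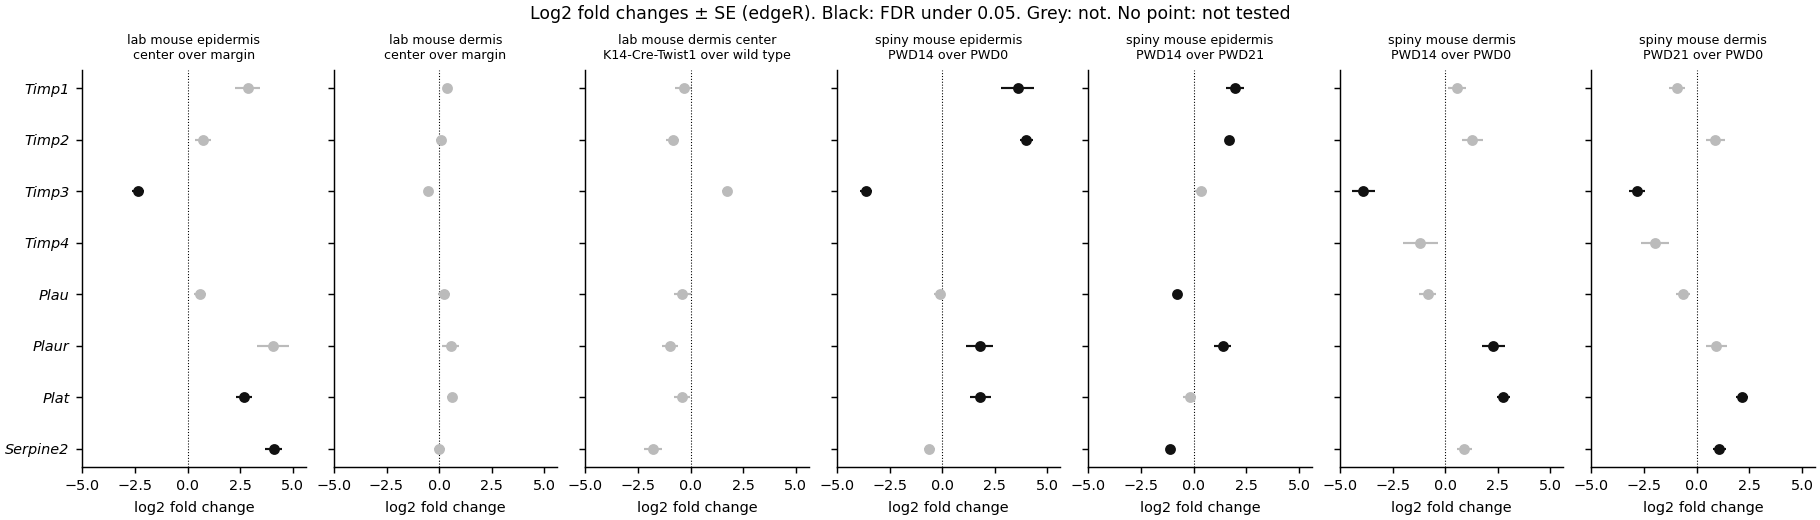
Log2 fold changes of each gene with bars of 1 SE in 7 comparisons, in black where the FDR was under 0.05 and grey where it was not. Timp3 is below 0 in both laboratory mouse center-margin comparisons and in the 3 comparisons of spiny mouse wounds with PWD0, and above 0 in K14-Cre-Twist1 dermis.

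In K14-Cre-Twist1 center dermis none of the 7 genes was called against the 3 set B controls (edgeR), a comparison in which 0.0494% of all tested genes were called higher and 0.00706% lower. Twist1 itself was at 73.4 and 44.0 CPM in the K14-Cre-Twist1 libraries and 36.3 to 105 CPM in set B, which checks nothing, since the deletion is in keratinocytes. At an unadjusted p-value under 0.05 the count was 4 of 7 (Timp3, Serpine2, Timp2 and Plaur), against 11.5% of all tested genes. DESeq2 called 3, which were Timp3, Timp2 and Serpine2, and it called 3.47% of all genes it tested. Timp3 was at 488 and 384 CPM against 137, 116 and 140 CPM, with a log2 fold change of 1.73 ± 0.23 (FDR 0.0979). Serpine2 was at 225 and 136 CPM against 582, 948 and 356 CPM, with a log2 fold change of -1.78 ± 0.43 (FDR 0.264). Timp2 was at 1068 and 842 CPM against 1966, 1845 and 1411 CPM (log2 fold change -0.86 ± 0.29, FDR 0.338). Plaur was at 58.8 and 40.4 CPM against 83.3, 145 and 69.7 CPM (-0.99 ± 0.37, FDR 0.381). For each of these 4 genes the groups did not overlap, while Timp1, Plau and Plat overlapped, and 29.4% of all tested genes did not overlap.

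The wild type center dermis itself spanned much of these differences. Timp3 was at 291 and 356 CPM in set A and 116 to 140 CPM in set B, and Serpine2 at 320 and 280 CPM in set A. With set A as the control, an alternative chosen after seeing the data, the log2 fold change of K14-Cre-Twist1 was 0.50 for Timp3 (FDR 0.644), -0.66 for Serpine2 (FDR 0.621) and -0.36 for Timp2 (FDR 0.771), and none of the 7 was called. Timp3 stood lowest in the 3 libraries in which the keratinocyte markers were lowest, 40.2 to 92.6 CPM, and 2 of those 3 held the highest Serpine2 levels of the 9 dermis libraries. Of the 14 keratinocyte markers, 6 to 10 exceeded 3 counts in the set B libraries and 11 and 13 in the K14-Cre-Twist1 libraries, and Krt14 was at 1.08 to 6.72 CPM in set B and at 398 and 4707 CPM in K14-Cre-Twist1. Between the K14-Cre-Twist1 libraries, replicate 1 with a keratinocyte sum of 1062 CPM had the higher Timp3 level, and replicate 2 with 36945 CPM the lower one. With replicate 2 left out, Timp3 had a log2 fold change of 1.93. With replicate 1 left out, that of Timp3 was again positive, and those of Timp1, Timp2, Plat and Serpine2 were negative. Each of these fits rests on 1 K14-Cre-Twist1 library. In the fit without replicate 1 Timp4, with its 202 counts against none, was tested as well. None of 8 tested genes of a wider plasminogen list (14 genes: plasminogen, its receptors, inhibitors and cofactors) and none of 23 tested metalloproteinase genes was called. Neutrophil markers summed to 121 to 871 CPM in set B and 35.9 and 81.8 CPM in K14-Cre-Twist1, with a median log2 fold change of -2.73 and none of 5 called, and set B replicate 4, the highest in them, was also the highest of the 9 dermis libraries in Serpine2 and Plaur. The part of epidermal RNA and of neutrophils in the differences was not tested, and the sets and the genotype could not be balanced, since set A holds no K14-Cre-Twist1 library.

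**Figure D3:**
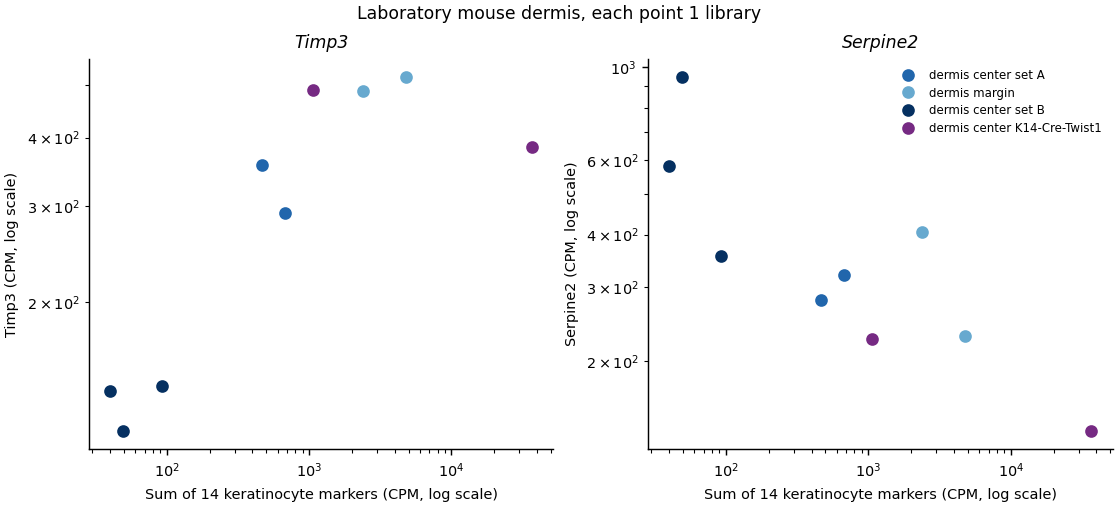
Timp3 (left) and Serpine2 (right) in CPM against the summed CPM of 14 keratinocyte markers in the 9 laboratory mouse dermis libraries, all axes on a log scale. The 3 set B libraries lie at 40.2 to 92.6 CPM of markers and 116 to 140 CPM of Timp3, and the other 6 lie at 465 CPM or more of markers and 291 CPM or more of Timp3.

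In spiny mouse epidermis the TIMPs exchanged rank over the course of healing. Unwounded epidermis held Timp3 at 206 CPM, Timp2 at 22.6 CPM and Timp1 at 0.94 CPM. At PWD14 Timp2 was at 219 and 220 CPM and Timp1 at 9.84 and 4.34 CPM, while Timp3 was at 11.5 and 8.81 CPM. At PWD21 Timp2 was at 119 and 79.9 CPM, Timp1 at 2.69 and 2.51 CPM and Timp3 at 13.8 and 8.85 CPM. At PWD28, with 1 library, Timp2 was at 35.1 CPM, Timp1 at 3.39 CPM and Timp3 at 62.1 CPM. Timp3 thus made up 89.6% of the reads on the 4 Timp genes before wounding. On PWD14 the share was 3.77% and 4.78%, on PWD21 9.70% and 10.1%, and on PWD28 61.5%. These ranks and shares are not scaled by gene length. How completely spiny mouse reads of each gene aligned to the laboratory mouse genome was not tested.

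Against PWD0, in a fit over the 6 epidermis libraries in which PWD0 is 1 library assumed to vary like the others, 5 of 7 tested genes were called at PWD14. Timp2 rose by 4.0 ± 0.32 on the log2 scale (FDR 1.52e-05), Timp1 by 3.59 ± 0.78 (FDR 0.00325), Plat by 1.81 ± 0.49 (FDR 0.011) and Plaur by 1.78 ± 0.63 (FDR 0.0377), and Timp3 fell, with a log2 fold change of -3.63 ± 0.29 (FDR 1.43e-05). Of all tested genes 22.7% were called higher and 26.1% lower. Plat was at 3.97 CPM before wounding and 5.58 and 11.2 CPM at PWD14, and Plaur at 1.89 against 3.02 and 4.79 CPM. Scaled by library size alone, Plat (1.10, FDR 0.0967) and Plaur (1.07, FDR 0.186) did not pass and Plau (-0.84, FDR 0.0290) and Serpine2 (-1.33, FDR 0.00158) were called lower. With TMM the values of these last genes were -0.12 ± 0.27 (FDR 0.725) and -0.61 ± 0.26 (FDR 0.0713). Plau was at 57.5 CPM and then 25.3 and 38.7 CPM, and Serpine2 at 43.2 CPM and then 18.8 and 15.8 CPM. The direction of Timp1, Timp2 and Timp3 and their calls were the same under both scalings, and library size scaling left 20.7% of all called genes higher in place of 46.6%. The call of Plaur was lost with DESeq2 (FDR 0.0935), edgeR 3 quasi-likelihood (FDR 0.0547), one fit over all spiny mouse libraries (FDR 0.0558), scaling by library size alone (FDR 0.186) and without PWD14 replicate 2 (FDR 0.0837).

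Between PWD14 and PWD21, with 2 libraries each, 5 of 7 genes were called, 3 higher and 2 lower at PWD14, against 23.4% and 23.2% of all tested genes. Timp1 was higher at PWD14 by 1.96 ± 0.42 on the log2 scale (FDR 0.00339), Timp2 by 1.68 ± 0.21 (FDR 0.000136) and Plaur by 1.37 ± 0.42 (FDR 0.019). Plau was lower, with 25.3 and 38.7 CPM at PWD14 and 72.4 and 90.1 CPM at PWD21 (log2 fold change -0.79 ± 0.21, FDR 0.0106), and so was Serpine2, with 18.8 and 15.8 CPM against 49.1 and 60.3 CPM (-1.11 ± 0.21, FDR 0.0015). Plat (5.58 and 11.2 against 13.7 and 14.8 CPM) did not pass, at -0.20 ± 0.30 (FDR 0.610), nor did Timp3, at 0.35 ± 0.30 (FDR 0.358). Scaled by library size alone, Plaur did not pass (0.83, FDR 0.111) and the share of higher calls among all called genes was 18.9% in place of 50.2%. Without PWD21 replicate 2 neither Plau (FDR 0.0983) nor Plaur (FDR 0.131) passed and the count was 3, and without PWD14 replicate 2 Plaur did not pass (FDR 0.0875).

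Other cell markers moved with the days in epidermis. Neutrophil markers summed to 0.944 CPM before wounding, 1512 and 2503 CPM at PWD14, 181 and 408 CPM at PWD21 and 14.5 CPM at PWD28. At PWD14 the median of the 6 neutrophil markers lay between 0 and 0.319 CPM, and S100a8 was at 0 and 0.128 CPM. Only 1 of the 6 passed the filter on low counts against PWD0, so that the sum does not stand for the whole list. Fibroblast markers summed to 1736 CPM before wounding and to 609 and 687 CPM at PWD14, while 5 of 15 were called higher and 2 lower with a median log2 fold change of 1.48, and the collagen gene Col1a1 was at 14.1 CPM and then 78.6 and 54.8 CPM, against 14552 and 22045 CPM in unwounded dermis. Adipocyte markers summed to 38.3 CPM before wounding, 5160 to 6303 CPM at PWD14 and 1053 to 1350 CPM at PWD21, and only 2 of the 6 exceeded 3 counts at PWD14. The part of these cells in the rise of Timp1, Timp2 and Plaur was not tested. Of 9 tested plasminogen genes at PWD14 against PWD0, 4 were called higher and 2 lower, among the lower ones Serpinb2, an intracellular inhibitor of urokinase (log2 fold change -2.38 ± 0.47, FDR 0.0019). Of 22 tested metalloproteinase genes 5 were called higher and 6 lower, with Mmp9 at 68.0 against 5.85 CPM (4.26 ± 0.60, FDR 0.000233) and Adam17, a sheddase that TIMP-3 inhibits, at 32.6 against 144 CPM (-1.42 ± 0.25, FDR 0.000882). Of all tested genes 22.7% were called higher and 26.1% lower against PWD0, near the shares of the metalloproteinase list. Against PWD21, 4 of 7 plasminogen genes were called higher and 1 lower at PWD14, and 5 of 17 metalloproteinase genes higher and 1 lower, with Mmp9 (1.2 ± 0.34, FDR 0.0138) and Mmp3 (2.0 ± 0.59, FDR 0.0172) among the higher ones. There 23.4% of all tested genes were called higher and 23.2% lower.

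**Figure D4:**
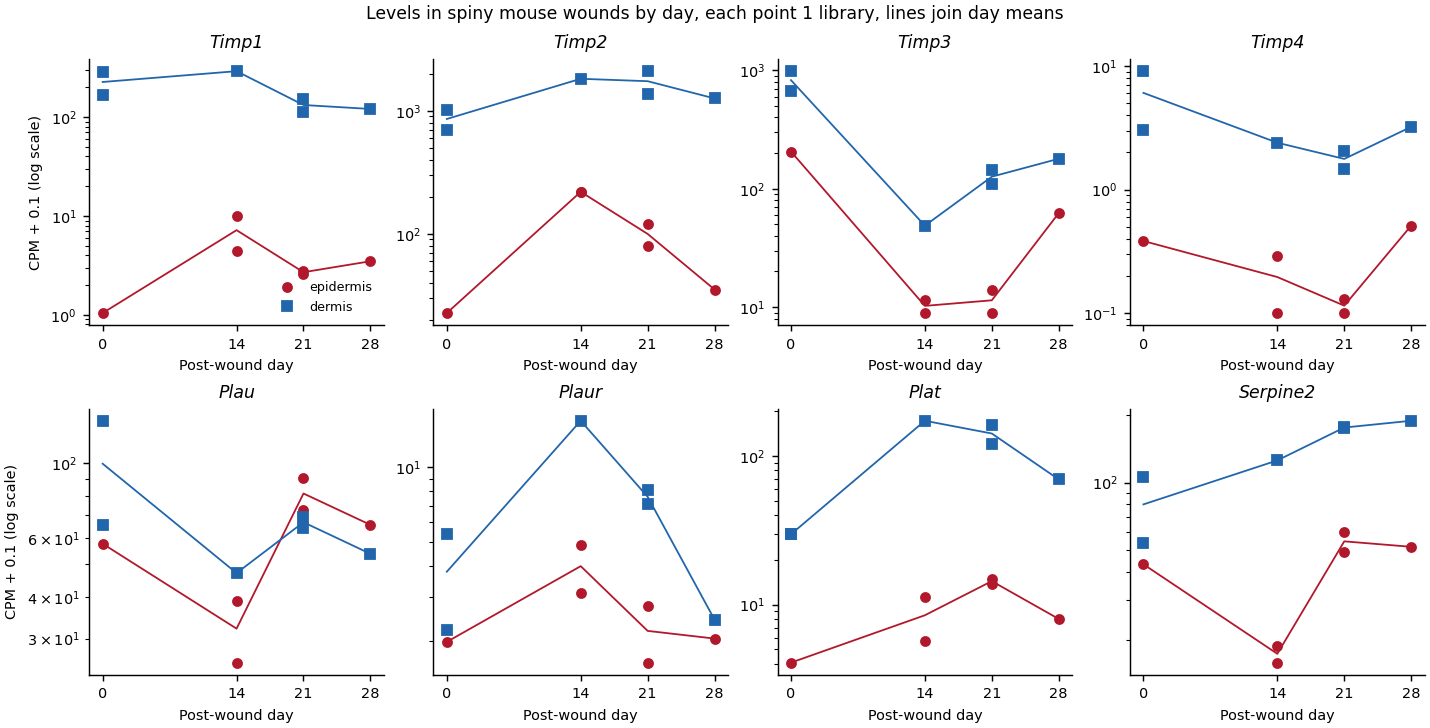
Levels of the 8 genes in each spiny mouse library by post-wound day, as CPM + 0.1 on a log scale that differs between panels, with lines joining the means of each day in epidermis and dermis. Timp3 is lowest at PWD14 in dermis (48.6 CPM) and lies between 8.81 and 13.8 CPM at PWD14 and PWD21 in epidermis, while Timp2 peaks at PWD14 in both layers by mean level.

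In spiny mouse dermis Timp3 fell as well and Plat rose. Timp3 was at 984 and 668 CPM in unwounded dermis, 48.6 CPM at PWD14, 109 and 144 CPM at PWD21 and 179 CPM at PWD28, and no wounded library reached the unwounded range. Plat was at 29.6 and 29.7 CPM before wounding, 173 CPM at PWD14, 162 and 121 CPM at PWD21 and 69.5 CPM at PWD28. Serpine2 was at 53.8 and 106 CPM, then 125 CPM, then 176 and 174 CPM, and 188 CPM at PWD28. Plaur was at 2.12 and 5.29 CPM before wounding, 15.2 CPM at PWD14, 7.98 and 7.02 CPM at PWD21 and 2.34 CPM at PWD28. The share of Timp3 among reads on the 4 Timp genes was 42.7% and 43.7% before wounding. On PWD14 it was 2.25%, on PWD21 6.6% and 6.10%, and on PWD28 11.4%, and Timp2 made up 80.7% to 89.1% of them in all 4 wounded libraries.

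At PWD21 against PWD0 (2 against 2 libraries) 3 of 8 tested genes were called, 2 higher and 1 lower, against 12% and 14.2% of all tested genes. The log2 fold changes were 2.14 ± 0.29 for Plat (FDR 0.00179), 1.06 ± 0.31 for Serpine2 (FDR 0.0373) and -2.84 ± 0.40 for Timp3 (FDR 0.00202). Timp4 did not pass, at 1.96 and 1.38 CPM against 9.0 and 2.94 CPM (log2 fold change -2.0 ± 0.66, FDR 0.0562), nor did Timp1, at 152 and 113 CPM against 287 and 165 CPM (-0.92 ± 0.38, FDR 0.101). Timp2 (1383 and 2103 against 1025 and 693 CPM, FDR 0.165), Plaur (FDR 0.184) and Plau (FDR 0.159) did not pass. Serpine2 lost its call without PWD21 replicate 1 (FDR 0.138), PWD21 replicate 2 (FDR 0.173) or PWD0 replicate 1 (FDR 0.128), Plat and Timp3 passed with each library left out, and without PWD0 replicate 2 the count was 6 of 8, in a fit that called 34% of all tested genes.

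At PWD14 against PWD0, in a fit over the 6 dermis libraries with 1 library at PWD14, 3 of 8 genes were called, against 7.95% of all tested genes called higher and 10.5% lower. Plat rose by 2.77 ± 0.33 on the log2 scale (FDR 0.00143) and Plaur by 2.29 ± 0.54 (FDR 0.0225), and Timp3 fell, with a log2 fold change of -3.89 ± 0.54 (FDR 0.00266). Timp2 was at 1824 CPM against 1025 and 693 CPM (1.29 ± 0.51, FDR 0.114), Serpine2 differed by 0.91 ± 0.37 (FDR 0.123) and Timp1 by 0.55 ± 0.44 (FDR 0.408). Without PWD21 replicate 1 or replicate 2 the FDR of Plaur was 0.0544 and 0.0558. Without PWD0 replicate 1 the count was 6 of 8 and without PWD0 replicate 2 it was 5, in fits that called 27.5% and 24% of all tested genes. Scaling by library size left the same 3 genes called and 30.5% of all called genes higher in place of 43.0%. The comparison with PWD14 and that with PWD21 share the PWD0 libraries.

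In the dermis too, markers of other cells moved with the day. Keratinocyte markers summed to 7332 and 8707 CPM in unwounded dermis, 1819 CPM at PWD14 and 781 and 1429 CPM at PWD21, with 12 of 14 called lower at PWD21. Adipocyte markers summed to 1115 and 1143 CPM before wounding and 121 CPM at PWD14. Fibroblast markers summed to 70368 and 103431 CPM before wounding and 139572 to 170596 CPM at PWD14 and PWD21, and 8 of 15 were called higher at PWD21. Timp3 was at 206 CPM in unwounded epidermis, below its level in unwounded dermis. The part of these cells in the changes of Timp3 and Plat was not tested.

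Several of the proteases that TIMPs inhibit rose in spiny mouse dermis. At PWD21, 10 of 24 tested metalloproteinase genes were called higher and none lower, with a median log2 fold change of 0.97 against 0.03 for all genes. Of all tested genes 12% were called higher and 14.2% lower at PWD21. Mmp11 was at a mean of 956 CPM against 8.05 CPM (log2 fold change 6.81 ± 0.41, FDR 0.000145), Adam12 at 107 against 1.18 CPM (6.40 ± 0.38, FDR 0.000145), the collagenase Mmp13 at 46.4 against 0.896 CPM (5.55 ± 1.2, FDR 0.0122) and the aggrecanase Adamts4 at 145 against 11.01 CPM (3.67 ± 0.47, FDR 0.00134). At PWD14, 11 of 25 were called higher and 1 lower, with Mmp11 at 2054 CPM and Mmp9 at 152 against 3.0 CPM (5.90 ± 0.46, FDR 0.00041). Of all tested genes 7.95% were called higher and 10.5% lower at PWD14. In the plasminogen list 4 of 11 tested genes were called lower at PWD21. Serpinb2 had the lowest fold change, with 3.97 against 177 CPM (-5.62 ± 0.43, FDR 0.000227). Serpinb2 is also a gene of keratinocytes, and at PWD21 it was at 187 CPM in epidermis. The part of keratinocyte RNA in its lower dermis level was not tested.

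Between spiny mouse layers at PWD21, 7 of 8 genes were called lower in epidermis and none higher, against 33.5% and 29.4% of all tested genes. Timp4 was called with 1 and 0 counts in epidermis, so that its fitted fold change depends on the prior count and is not given. Timp1 (-5.53 ± 0.26, FDR 6.15e-06) had the widest gap of the other genes, and Timp2 (-4.0 ± 0.37), Timp3 (-3.34 ± 0.32) and Plat (-3.19 ± 0.22) followed. Plaur (-1.66 ± 0.37, FDR 0.00601) and Serpine2 (-1.57 ± 0.19, FDR 0.000281) had the narrowest. Plau was the 1 gene not called, at 72.4 and 90.1 CPM in epidermis and 69.3 and 64.0 CPM in dermis (0.40 ± 0.19, FDR 0.0971).

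**Figure D5:**
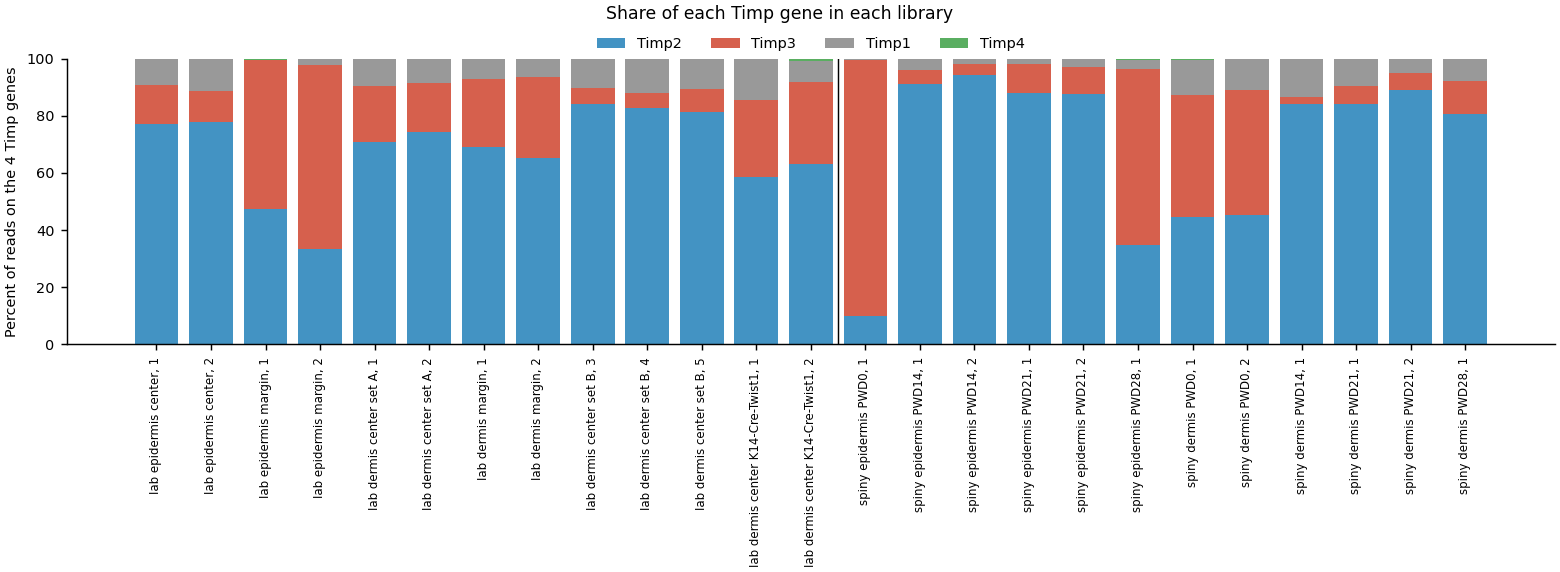
Share of each Timp gene among the reads on the 4 Timp genes, in percent, in each of the 25 libraries, laboratory mouse left of the line and spiny mouse right of it. Timp3 takes 51.9% and 64.7% in laboratory mouse margin epidermis, 89.6% in unwounded and 61.5% in PWD28 spiny mouse epidermis, and at most 43.7% elsewhere. Reads are not scaled by gene length, and those of both species were aligned to the laboratory mouse genome.

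Across libraries, likeness of pattern was described with Pearson's r of log2(TMM-scaled CPM + 1), over genes whose mean level reached 5 CPM. The libraries share layer and day, so that most of each r is the contrast between epidermis and dermis. Over the 13 laboratory mouse libraries, Timp1, Timp2, Plat and Serpine2 had r of 0.955 to 0.983 with each other, Timp3 had r of 0.610 to 0.785 with these 4, and Plau had r between -0.847 (with Timp3) and -0.349 (with Plaur) with the other 6. The genes most like Timp3 were Brdt (r = 0.963), Nov (0.960) and Txndc16 (0.958), and those most like Plat were Prss35 (0.996), Flnc (0.995) and Gpr153 (0.994). Over the 12 spiny mouse libraries Timp1 and Timp2 had an r of 0.920 and Plat and Serpine2 of 0.852, while the r of Timp3 with the others ranged from 0.180 to 0.611. Timp3 was there most like Ccni (0.990), Hs6st2 (0.982) and Sbspon (0.970), and Plau, with r between -0.0249 and 0.180 with the other members, was most like Arl6ip1 (0.921).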

How the data were processed

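RNA-seq was measured in 25 libraries. The authors aligned the reads of both species to the mouse genome mm10 with STAR (2.6.1d in the methods, 2.4.1d in the submitters' processing notes), counted them on RefSeq genes with htseq-count 0.6.0, and deposited whole-number read counts per gene. Laboratory mouse epidermis was sequenced strand-specifically with paired ends, laboratory mouse dermis strand-specifically with single ends, and spiny mouse skin without strand information and with single ends.

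From these counts CPM were computed over the 24500 gene rows. The 5 summary lines were left out. RPKM used exon lengths from the GENCODE annotation, while the reads had been counted on RefSeq genes. Tests used edgeR 4.0.16 in R 4.3.3 (quasi-likelihood, TMM, filterByExpr, prior count 0.125, Benjamini-Hochberg), with limma 3.58.1, and DESeq2 1.42.0 as an alternative, beside other scalings, filters and fits. Plots used matplotlib 3.10.9. The main edgeR fit was tested on simulated data in which 200 genes were changed by 3 on the log2 scale. It recovered 66.5% of them for K14-Cre-Twist1, 62.5% for the interaction and 82.5% to 100% in the other comparisons. Groups followed the labels. The split of wild type center dermis into sets A and B followed the study's clustering. All 8 members are named. From the wider lists, up to 4 called genes per comparison with the largest absolute fold change and a mean of at least 5 CPM could be named. The members, lists and tests were chosen with earlier results of these data known. Set A as control was added after seeing the data. The limit from 3 counts covers counting error only. A chi-square test found each pair of replicates to differ by more than sampling noise, and none was merged. The labels give days 14, 21 and 28 for wounded spiny mice, which are used here, and a sample list of the study gives somewhat different days for the same libraries. The result of 1 gene of the plasminogen list is not reported here, nor are counts that consist of it alone.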

Additional observations from a re-analysis of the deposited data

Results flagged for a closer look

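The change from wound margin to center differed between epidermis and dermis of laboratory mice for 4 genes, by the interaction test in edgeR over 8 libraries. Of all tested genes 3.34% were called higher and 0.135% lower in this test. Only Serpine2 of the 4 kept its call with each library left out. Fibroblast, keratinocyte and endothelial markers moved with the same interaction, and their part in it was not tested. The log2 difference, epidermis minus dermis, was 4.22 for Serpine2, 2.6 for Timp1, 2.21 for Plat and -1.68 for Timp3.

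In spiny mice, some genes differed from unwounded skin in opposite directions in the layers. They are listed because no library of the day overlapped an unwounded one in either layer. The share of all genes that did so was not counted. This difference between layers was not tested. Timp1 had a log2 ratio of mean CPM over PWD0 of 1.46 in epidermis and -0.77 in dermis at PWD21, and of 1.84 and -0.91 at PWD28. Plau had 0.19 in epidermis, at 65.5 against 57.5 CPM with 1 library each, and -0.89 in dermis at PWD28. Serpine2 had -1.33 in epidermis and 0.65 in dermis at PWD14. These ratios are of CPM without TMM scaling. In the edgeR fits with TMM the log2 fold change of Serpine2 at PWD14 was -0.61 in epidermis and 0.91 in dermis, and it was called in neither. The unwounded epidermis and both layers at PWD28 are single libraries, as is dermis at PWD14. Between single libraries, as in epidermis at PWD28, values that differ cannot overlap.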

How the results depend on the processing

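Most fold changes of the members kept their direction and side of the threshold: 616 did under other tools, scalings, filters and samples, 24 passed newly, 22 no longer passed and 6 turned direction. With 1 library left out the numbers were 322, 26, 32 and 11. The causes were not tested. In laboratory mouse epidermis, center against margin, the count of called members was 5 with the likelihood ratio test, 0 with edgeR 3 quasi-likelihood, 5 in one fit over all libraries of the species, and 1 to 6 with 1 library left out. In dermis, center against margin, it was 1 with DESeq2 and 0 to 0 with 1 library left out, and for K14-Cre-Twist1 3 with DESeq2, 1 with the likelihood ratio test, 1 in one fit and 0 to 6, the highest with Timp4 included. It was 3 to 5 for spiny mouse epidermis PWD14 against PWD21, 4 to 6 against PWD0, 5 in one fit and 2 to 6 for dermis PWD21 against PWD0, and 2 to 6 for dermis PWD14. It was 4 with at least 10 counts in every library and 6 to 7 for the margin layers, 7 to 7 for the center layers and the spiny mouse layers, and 1 in one fit and 1 to 5 for the interaction.

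These fold changes turned direction in at least 1 setting. In dermis, center against margin, with 1 library left out, Timp2 ranged from -0.17 to 0.30 (negative without center replicate 2, and -0.069 without margin replicate 2), Plau from -0.095 without center replicate 2 to 0.49, and Plaur from -0.26 without center replicate 1 to 1.05. Serpine2, near 0, was 0.0034 with DESeq2, 0.0035 with RLE, 0.000695 without a filter and 0.81 with all 5 center libraries, and ranged from -0.38 to 0.52 with 1 library left out (0.13 without center replicate 2, 0.52 without margin replicate 1). For K14-Cre-Twist1, Timp1 ranged from -1.28 without replicate 1 to 0.23 without replicate 2, Plau from -1.08 to 0.071 and Plat from -1.31 to 0.13, and Timp1 was 0.27 against set A. In spiny mouse epidermis against PWD21, Timp3 was -0.20 by library size and Plat ranged from -0.76 to 0.16, the latter without PWD14 replicate 1, and against PWD0 Plau ranged from -0.45 to 0.089, the latter without PWD14 replicate 1.

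Over all genes, calls in laboratory mouse epidermis numbered 176, against 1544 with DESeq2, 1533 with the likelihood ratio test, 0 with edgeR 3 and 478 in one fit. In dermis they numbered 125, against 736, 886, 54 and 3, and 323 with all 5 center libraries. For K14-Cre-Twist1 they numbered 8, against 520, 214, 2 and 229, and 0 with at least 10 counts, 190 with all 5 controls and 1 against set A. For the interaction they numbered 540, against 1187 with DESeq2, 1485 with the likelihood ratio test, 204 with at least 10 counts and 92 in one fit. One further case was dermis PWD14, at 2838 against 4291 with the likelihood ratio test. With 1 library left out the calls over all genes ranged from 70 to 7405 in laboratory mouse epidermis, 19 to 241 in dermis, 1 to 3353 for K14-Cre-Twist1, 167 to 1343 for the interaction, 5054 to 7885 against 7777 for the center layers, 4508 to 7623 against 7141 for the margin layers, 3470 to 6635 against 6002 for spiny mouse epidermis PWD14 against PWD21, 1311 to 5118 against 3792 for dermis PWD21 and 1888 to 4219 against 2838 for dermis PWD14. No paired analysis was possible because the labels give no replicate numbers. Groups of 1 or 2 libraries limit every test, and 3 counts correspond to up to 0.529 CPM in the shallowest library.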

Other observations

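Markers of cells not described above also differed between groups. In laboratory mouse epidermis, center against margin, none of 10 macrophage, 4 neutrophil, 6 endothelial, 6 skeletal muscle and 3 Schwann markers tested was called, and 1 adipocyte marker tested was called higher. The median log2 fold change was nonetheless 3.03 for the endothelial markers, which summed to 20.7 and 32.0 CPM at the center and 1.68 and 6.63 CPM at the margin, and 2.53 for the neutrophil markers, which summed to 254 and 404 CPM against 41.3 and 111 CPM. In laboratory mouse dermis 2 of 5 Schwann markers were called lower at the center. In spiny mouse dermis at PWD21, 4 of 6 endothelial markers were called higher than in unwounded skin, and 7 of 10 skeletal muscle markers, 6 of 6 adipocyte markers and 2 of 5 Schwann markers lower. In spiny mouse epidermis at PWD14, 4 of 9 macrophage markers tested were called higher than before wounding and 1 lower. The part of these cells in the levels of the inhibitors and activators was not tested.

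Timp4 had the lowest mean level of the 8 genes over the 6 spiny mouse epidermis libraries (0.152 CPM) and over the 6 dermis libraries (3.45 CPM). Plaur was lower by mean in unwounded dermis (3.70 against 5.97 CPM) and in the PWD28 dermis library (2.34 against 3.12 CPM). Timp4 was detected in all 6 dermis libraries with 20 to 51 counts and had 0 to 4 counts in the 6 epidermis libraries.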
